A study of Lolium multiflorum with 4 samples.

Results

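LmLC is 1 of the lines of Lolium multiflorum (Italian ryegrass, a forage grass) in this series, and the name is given as low cadmium. The data on its response are 2 of the 4 libraries of the series, 1 from LmLC seedlings at 0 h and 1 from LmLC seedlings after 24 h with 300 µM cadmium chloride. The other 2 libraries are from LmHC (high cadmium) at the same times. They enter the mean level by which contigs and clusters are kept and sorted, and otherwise give values to set beside those of LmLC. LmLC and LmHC are read as lines because the growth protocol lists them as seed stocks, although the labels enter low and high cadmium under a treatment tag. Both were raised on agar for 7 days, moved to Hoagland nutrient solution under a photoperiod of 16 h and treated at an age of 2 weeks. The sources used here do not say which organ was harvested, how many seedlings were pooled per library, or in what sense LmLC is low.

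Cadmium is a toxic metal with no known role in grasses. It enters roots largely through carriers of nutrient metals such as iron, zinc and manganese, and plants are known to bind it with thiol peptides and to move it into vacuoles. An excess disturbs redox balance, photosynthesis and the use of sulfur, so a strong dose is known to shift many transcripts at once. The table used here lists assembled contigs, stretches of transcript sequence put together from reads, and it pairs none of them with a gene name. No transporter, chelator or stress gene could therefore be picked out for LmLC, and the labelled plant material could not be checked against marker genes. Contigs appear here under the identifiers of the table. A shared CL prefix marks contigs of 1 assembly cluster, a group of similar sequences such as isoforms, alleles or duplicated genes.

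Values are FPKM, fragments per kilobase of contig relative to all mapped fragments, which is a level per length. Of 111761 contigs, 70886 had a mean of at least 1 FPKM over the 4 libraries and are called expressed here. The 4 columns summed to between 782476 and 795368 FPKM over all contigs. The 24 h library of LmLC had an estimated depth of 0.92 relative to its 0 h library, from the worth of 1 fragment in low stand-alone contigs. Fragment counts are not in the table, so counting error is unknown. With 1 library per group there is no replicate spread, no test and no p-value for any difference below. None of the 4 libraries of the series is an untreated one at 24 h, so an effect of cadmium cannot be told apart from that of 24 h passing.

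More than 50% of the expressed contigs of LmLC differed by 2-fold or more from 0 h to 24 h, and they lay on both sides. As log2 of (FPKM + 1) at 24 h over (FPKM + 1) at 0 h, a scale that understates the change of low contigs, 20736 contigs (29.3%) were higher at 24 h by 2-fold or more. Another 17614 contigs (24.8%) were lower by 2-fold or more, and 32536 contigs (45.9%) were within 2-fold. In LmHC the shares were 28.2% higher and 27.6% lower. The LmLC ratios were not symmetric about 0. Their median was -0.14, the lower quartile -0.99 and the upper quartile 1.25, so the upper side reached further. Among contigs with a mean of at least 20 FPKM, the 2 fullest bins of 0.25 on the log2 scale ran from -1.25 to -1 and from -1 to -0.75 and held 710 and 706 contigs. With the median-of-ratios scaling described next, the 2 fullest ran from -1 to -0.75 and from -0.75 to -0.5, with 672 and 734 contigs, so the fullest bins lay below 0 in both cases. Scaling by the median of ratios moved the median log2 ratio of all expressed contigs from -0.14 to 0.08. Higher contigs then made up 65.8% of all contigs past 2-fold, against 54.1% as deposited. At a mean of at least 5 FPKM that share was 46.2%, so the balance of higher and lower contigs depends on the setting, and a pseudocount of 5 left 8438 higher and 5456 lower contigs.

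The balance changed with the level of the contig. Of 43917 contigs averaging 1 to 5 FPKM, 30.8% were higher in LmLC at 24 h by 2-fold or more and 21.0% lower. At 5 to 20 FPKM the shares were 26.1% higher and 31.0% lower, and at 20 to 100 FPKM they were 29.1% and 30.3%. Above that, among 1044 contigs with a mean of 100 FPKM or more, 25.1% were higher and 40.0% lower, and the median log2 ratio was -0.72. With median-of-ratios scaling this last class was nearly even, at 26.5% higher and 27.0% lower, with a median log2 ratio of -0.41, while the lowest class had 34.4% higher and 14.9% lower. In LmHC the shares as deposited for 100 FPKM or more were 25.2% higher and 36.6% lower, and no test of the difference between the lines is possible.

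**Figure D1:**
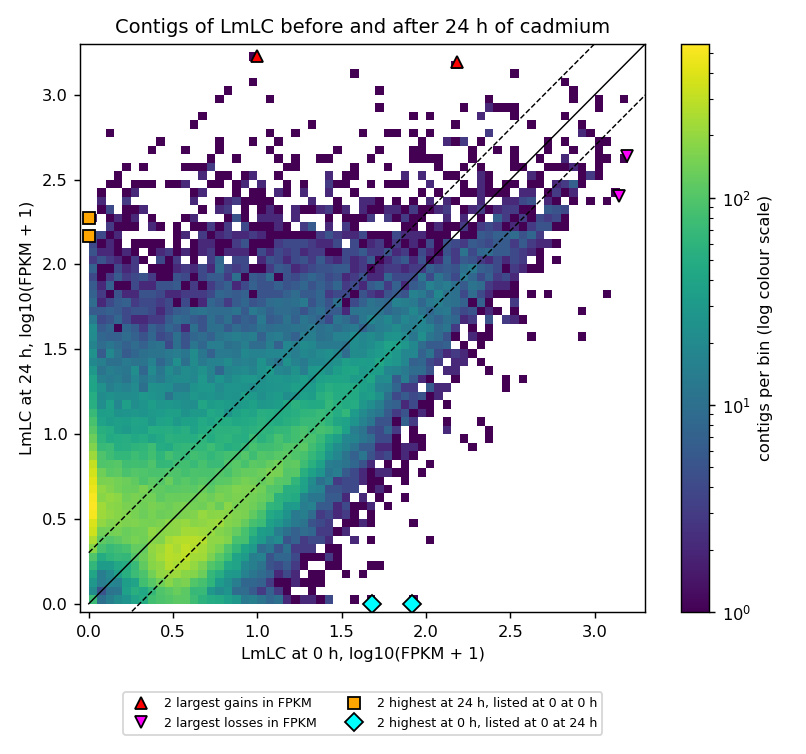
Each coloured bin counts expressed contigs by their level in LmLC at 0 h (horizontal) and 24 h (vertical), both as log10 of FPKM + 1, with a solid line of equality and dashed lines at 2-fold of FPKM + 1. The cloud spreads on both sides of the dashed lines, with 20736 contigs on or above the upper line and 17614 on or below the lower line, and symbols mark the contigs named in the text.

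Changes of at least 8-fold were mostly increases. At 24 h, 3128 LmLC contigs (4.41%) had increased to this extent and 265 (0.374%) had decreased. The increases began from low levels, with a median of 0.46 FPKM at 0 h and 23.6 FPKM at 24 h. Of them, 566 (18.1%) were listed at 0 at 0 h. The decreases began from a median of 21.1 FPKM and ended at a median of 0.8 FPKM, and 58 (21.9%) were listed at 0 at 24 h. Of all 70886 expressed contigs, 4053 were listed at 0 at 0 h and 857 at 24 h. Sorting by an 8-fold change favours a value of 0 at the low end. The numbers of increases and decreases depend on the pseudocount, with 11261 increases and 2252 decreases at 0.1, and 761 and 31 at 5. In LmHC, 4.35% of contigs had increased by 8-fold or more and 0.313% had decreased by as much. The lists of increases of the 2 lines, which share no library, had 2151 contigs in common, 68.8% of the LmLC list and 69.7% of the LmHC list. The lists of decreases had 80 in common, 30.2% of the 265 in LmLC and 36.0% of the 222 in LmHC. A further look at the 2-fold limit showed that 2814 of the LmLC increases (90.0%) and 215 of its decreases (81.1%) were at least 2-fold changed in the same direction in LmHC, where the shares over all expressed contigs were 28.2% and 27.6%.

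Gains of FPKM in LmLC were led by 2 contigs that became the most abundant ones of the 24 h library. CL14765.Contig1_All had 8.95 FPKM at 0 h and 1683.61 FPKM at 24 h in LmLC, and 4.53 and 1414.56 FPKM in LmHC. Unigene11264_All had 150.72 FPKM at 0 h and 1560.17 FPKM at 24 h in LmLC, and 182.3 and 967.8 FPKM in LmHC. Both had a higher level in each 24 h library than in either 0 h library, although Unigene11264_All was already in the class of 100 FPKM or more at 0 h. The LmLC log2 ratios were 7.40 and 3.36. CL14765.Contig1_All alone went from 0.00113% to 0.212% of the summed FPKM of LmLC over all contigs, expressed or not.

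The largest losses were in contigs that stood among the highest at 0 h and stayed abundant. Unigene14355_All had 1389.76 FPKM at 0 h and 253.05 FPKM at 24 h in LmLC, and 1220.08 and 269.04 FPKM in LmHC. CL12983.Contig2_All, the highest contig of LmLC at 0 h, had 1554.2 FPKM then and 434.22 FPKM at 24 h, and in LmHC it had 1670.27 and 816.21 FPKM. The LmLC log2 ratios were -2.45 and -1.84. The 24 h level of CL12983.Contig2_All in LmLC lay below that in LmHC, whereas the 24 h levels of Unigene14355_All were close in the lines, and neither difference could be tested.

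The contigs named for having no listed level at 1 time, picked for a high level at the other, were of unlike kinds. Unigene20306_All was listed at 0 in both 0 h libraries and had 187.91 FPKM in LmLC and 174.3 FPKM in LmHC at 24 h. CL3420.Contig13_All was listed at 0 in LmLC at 0 h and had 145.82 FPKM at 24 h, beside 0.04 and 203.94 FPKM in LmHC. The increases of these named contigs, from 0 or near 0, were thus seen in each line. In the other direction, the LmLC library at 0 h held CL12486.Contig2_All at 82.08 FPKM and Unigene38196_All at 47.06 FPKM, and the other 3 libraries listed each of them at 0. Among all LmLC increases of at least 8-fold, 160 (5.12%) were listed at 0 in both LmHC libraries. So were 19 of the decreases of at least 8-fold (7.17%) and 1.90% of expressed contigs. Such contigs pass the filter only through LmLC. Contigs at 1 FPKM or more in 1 library and listed at 0 in the other 3 numbered 421 for LmLC at 0 h and 1083 for LmLC at 24 h, against 90 and 391 for the LmHC libraries at the same times. These numbers are over all 111761 contigs. Among expressed contigs, 59 (0.0832%) were listed above 0 in LmLC at 0 h alone, and 14 of them were among the 265 decreases of at least 8-fold (5.28% of those). A contig seen in a single library is kept only if it is high there, so the filter and the sorting favour this overlap. Whether such contigs come from ryegrass was not tested, since the table holds no sequence.

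In abundance classes, LmLC gained contigs in the middle and lost them at the bottom. Expressed contigs were sorted at each time as listed at 0, above 0 to below 1, 1 to below 10, 10 to below 100, and 100 FPKM or more. From 0 h to 24 h, the number listed at 0 went from 4053 to 857 and the number above 0 and below 1 FPKM from 12921 to 9257. The class of 1 to below 10 FPKM went from 39221 to 46251. The 2 upper classes kept nearly the same size, with 13586 and 13412 contigs at 10 to below 100 FPKM and 1105 and 1109 at 100 FPKM or more. Because the filter uses the mean over the 4 libraries, a contig low at 0 h could be counted only if it was higher elsewhere, so the movement out of the lowest classes is in part built into the filter. Without the filter, 34229 of 111761 contigs moved to a higher class and 24861 to a lower one. With it, the numbers were 20535 and 15675 of 70886. Over all contigs, the number listed at 0 went from 22353 to 14788 in LmLC and from 24679 to 17523 in LmHC.

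Similar class sizes hid an exchange of members. Of the 1105 contigs at 100 FPKM or more at 0 h, 478 (43.3%) were still there at 24 h, 619 (56.0%) had moved to 10 to below 100 FPKM and 8 to 1 to below 10 FPKM. The 24 h class of 1109 drew 349 contigs from 10 to below 100 FPKM, 198 from 1 to below 10 FPKM, 75 from above 0 to below 1 FPKM and 9 from those listed at 0. Of the 478 contigs in the top class at both times, 262 (54.8%) were within 2-fold, 179 were at least 2-fold lower and 37 at least 2-fold higher. At 10 to below 100 FPKM, 6819 of 13586 contigs (50.2%) kept their class and 6277 (46.2%) moved to the class below. Moves over 2 or more classes were mostly upward, with 5467 contigs up and 816 down. In LmHC those numbers were 5110 and 783.

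**Figure D2:**
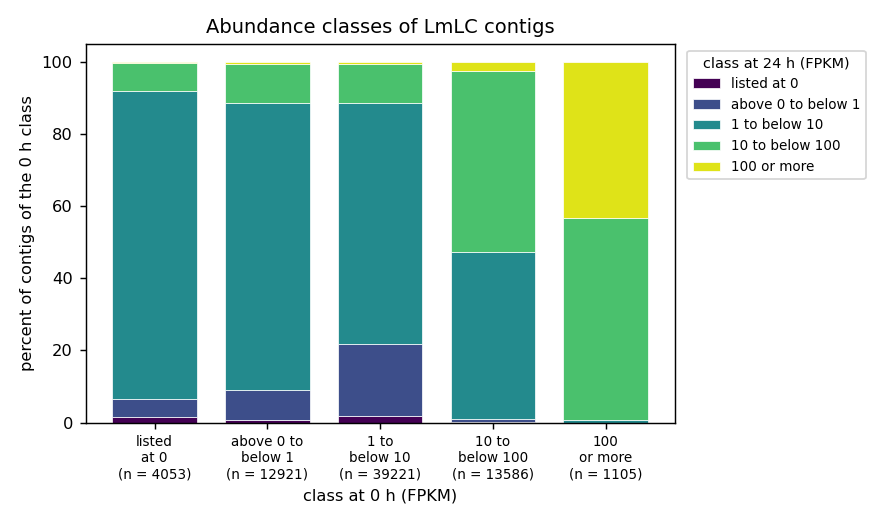
Stacked bars give, for the expressed LmLC contigs of each abundance class at 0 h (horizontal, FPKM, with the number of contigs), the percent found in each class at 24 h (colours). Of the class of 100 FPKM or more, 43.3% kept their class. Of the class listed at 0, 85.4% were at 1 to below 10 FPKM at 24 h, a move in part built into the filter. Of 22353 contigs listed at 0 at 0 h, the filter kept the 4053 that were high enough in other libraries.

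The summed FPKM of LmLC was redistributed rather than enlarged. Over expressed contigs it was 779522 FPKM at 0 h and 775288 FPKM at 24 h, which the scaling to mapped fragments largely fixes. FPKM is per length, so a share of the sum is a share of transcripts more than of fragments. Contigs higher at 24 h by 2-fold or more went from 51985 to 373821 FPKM, or from 6.67% to 48.2% of the sum. Contigs at least 2-fold lower went from 50.4% to 16.1%, and those within 2-fold from 42.9% to 35.7%. The shares are defined by the direction of each contig, so their signs are given by the sorting, and their size is the measurement. The increases of at least 8-fold held 0.752% of the sum at 0 h and 21.3% at 24 h. The decreases of at least 8-fold held 1.72% and 0.104%. In LmHC, contigs at least 2-fold higher went from 6.69% to 48.8% and those at least 2-fold lower from 51.1% to 16.6%.

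**Figure D3:**
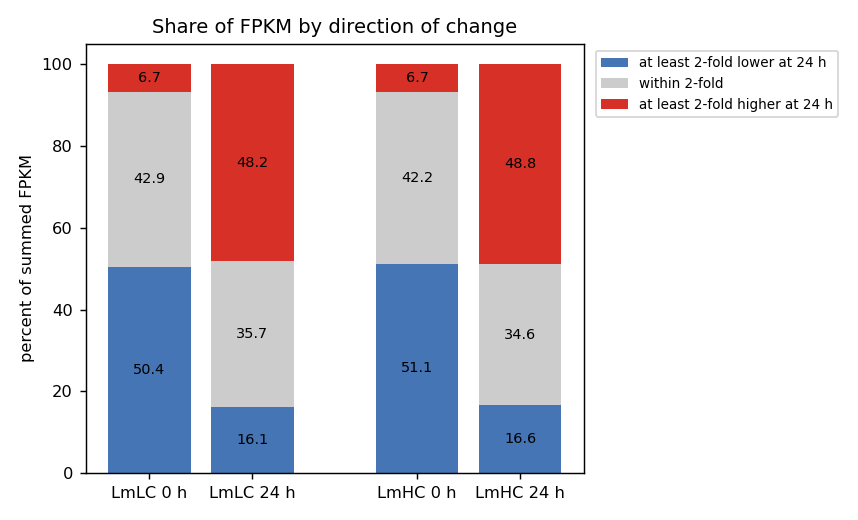
Stacked bars give the percent of the summed FPKM of expressed contigs in each library that was held by contigs at least 2-fold lower (blue), within 2-fold (grey) and at least 2-fold higher (red) at 24 h in that line. In LmLC the red share is 6.67% at 0 h and 48.2% at 24 h, and LmHC gives 6.69% and 48.8%.

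As a single measure of reallocation, the difference between the libraries in each contig's share of the sum was taken, and the positive parts were added. By this measure 45.8% of the FPKM of LmLC lay on other contigs at 24 h than at 0 h, and 46.2% in LmHC. Between the lines the same measure gave 10.4% at 0 h and 14.5% at 24 h. The distance between the times in LmLC was therefore more than the distance between the lines at either time, though each distance rests on 1 pair of libraries. It did not come from a handful of contigs. The 10 largest gains made up 3.19% of all gains in LmLC and the 10 largest losses 2.43% of all losses, and 50% of the gains needed 1448 contigs and 50% of the losses 1817.

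The distribution of FPKM over contigs was flatter at 24 h. At 0 h, 2939 contigs held 50% of the FPKM of LmLC, and at 24 h 3579 did. In LmHC the numbers were 3065 and 3386. The top 1000 contigs of LmLC held 33.2% at 0 h and the top 1000 at 24 h held 29.1%, while the top 10 held 1.58% and 1.62%. The former leaders gave way without vanishing. Of the top 100 at 0 h, 76 were lower by 2-fold or more at 24 h and 0 were higher by that much, their median rank at 24 h was 222, and their share went from 9.4% to 4.26%. The top 100 at 24 h had a median rank of 686 at 0 h, and 72 of them were at least 2-fold higher. Choosing contigs by a high level at 1 time favours a lower level at the other time, so these directions are a description.

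Among cluster sums as deposited, lower ones outnumbered higher ones. Summing all contigs with the same CL prefix gave 15237 clusters, of which 14193 had a mean sum of at least 1 FPKM. In LmLC, 3332 clusters (23.5%) were higher at 24 h by 2-fold or more and 4528 (31.9%) lower. The median log2 ratio of cluster sums was -0.49, against -0.14 for contigs. At least 8-fold, 720 clusters (5.07%) were higher and 80 (0.564%) lower. In LmHC, 23.2% of clusters were at least 2-fold higher and 36.4% lower. The direction of the 2-fold balance depends on scaling, since the share of higher clusters among those at least 2-fold apart went from 42.4% to 56.5% with the median of ratios, which left 2913 lower clusters.

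Large clusters were more often higher and small clusters more often lower. Of 5647 LmLC clusters with 2 contigs, 20.3% were higher at 24 h by 2-fold or more and 38.3% lower. With 3 to 4 contigs the shares were 21.9% and 33.0% of 4713 clusters, and with 5 to 9 contigs they were 28.5% and 24.0% of 2765. Among 1001 clusters with 10 or more contigs, 35.8% were higher and 12.2% lower, and the median log2 ratio was 0.37 against -0.71 for clusters of 2. The order held with median-of-ratios scaling, at 22.6% higher and 25.5% lower for clusters of 2 and 41.4% higher and 7.19% lower for those of 10 or more. LmHC gave 20.2% higher and 42.9% lower for clusters of 2, and 33.2% and 13.9% for those of 10 or more.

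The level moved with cluster size, with a median mean sum of 6.55 FPKM for clusters of 2 and 54.5 FPKM for those of 10 or more. In a subset chosen after the data were seen, clusters with a mean sum of 10 to below 100 FPKM, 11.5% of those with 2 contigs were higher and 46.9% lower in LmLC. In the same range, 31.0% of those with 10 or more contigs were higher and 11.8% lower. How many contigs an assembly makes of 1 gene can itself depend on the reads of each library, and its part in this order was not tested.

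**Figure D4:**
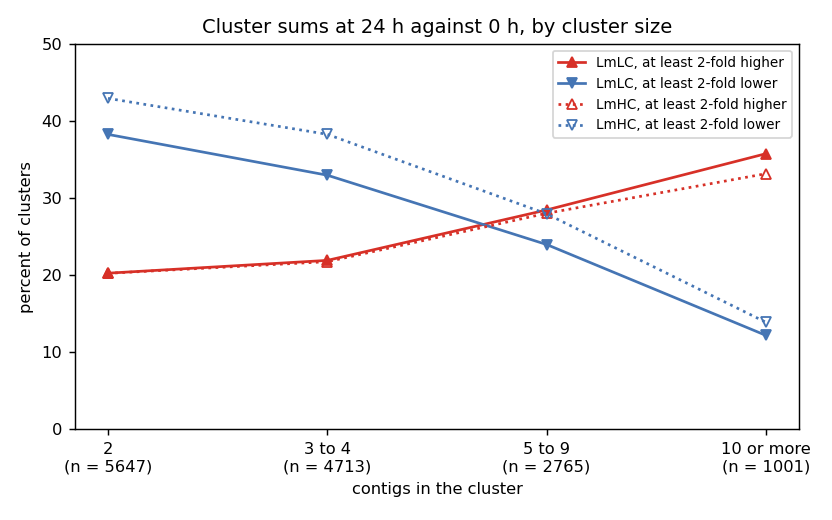
Points give the percent of assembly clusters whose summed FPKM was at least 2-fold higher (red) or lower (blue) at 24 h, by the number of contigs in the cluster, for LmLC (filled, solid line) and LmHC (open, dotted line). The higher share in LmLC goes from 20.3% to 35.8% and the lower share from 38.3% to 12.2%, and the LmHC points follow the same order.

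Where several contigs of an LmLC cluster were past 2-fold, they mostly shared a direction. Of 10812 clusters with at least 2 expressed contigs, 5390 held 2 or more contigs past 2-fold. In 2360 of these (43.8%) all such contigs were higher, in 2381 (44.2%) all were lower, and in 649 (12.0%) both directions occurred. A single contig was past 2-fold in 2653 clusters and none in 2769. Counted with those of a single contig, 3311 clusters held higher contigs alone and 4083 held lower contigs alone. All expressed contigs were at least 2-fold higher in 1422 clusters and at least 2-fold lower in 1410. Of the 649 clusters with both directions, 481 (74.1%) had a sum within 2-fold. Reads that fit several contigs are divided among them, so contigs of a cluster are not independent of each other. With cluster sums in place of contigs, the reallocated share of FPKM in LmLC was 44.2% instead of 45.8%, so shifts that cancel within clusters made up 1.59 percentage points of it.

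The clusters with the highest ratios changed as wholes. Named from the 8323 clusters with a mean sum of at least 10 FPKM, CL4030 had a sum of 4.03 FPKM at 0 h and 2088.33 FPKM at 24 h in LmLC, and 0.97 and 1930.54 FPKM in LmHC. All 15 of its 17 contigs that were expressed were at least 2-fold higher in LmLC, with single contigs between 0 and 1.19 FPKM at 0 h and between 0.29 and 309.35 FPKM at 24 h. CL495 had a sum of 0.64 FPKM at 0 h and 548.57 FPKM at 24 h in LmLC, and was listed at 0 and had 552.04 FPKM in LmHC. Of its 16 contigs, 12 were listed at 0 at 0 h in LmLC and 0 at 24 h. Each of these clusters was near 0 in both 0 h libraries and high in both 24 h libraries.

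The lowest ratios belonged to small clusters seen almost alone in LmLC at 0 h. CL12486, with 3 contigs, had a sum of 118.43 FPKM in LmLC at 0 h, had 0 listed at 24 h, and had 0 and 0.1 FPKM in LmHC. CL4970, with 2 contigs, had 42.35 FPKM in LmLC at 0 h, again with 0 listed at 24 h, and had 0.7 and 0.11 FPKM in LmHC. Neither was above 1 FPKM in LmHC at either time, so their decrease rests on the LmLC library at 0 h alone.

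By FPKM instead of ratio, a ranking chosen after the values were seen, the largest cluster gain in LmLC was in a cluster of 22 contigs that was already abundant. Its sum went from 1948.42 to 6927.63 FPKM in LmLC and from 1876.29 to 7382.7 FPKM in LmHC. In LmLC this was 0.245% and 0.871% of the FPKM summed over all contigs, expressed or not. Of its 21 expressed contigs, 18 were at least 2-fold higher in LmLC and 1 at least 2-fold lower. The largest loss was in a cluster of 8 contigs, from 3350.81 to 185.36 FPKM in LmLC and from 2623.99 to 190.94 FPKM in LmHC. All 8 contigs were at least 2-fold lower in LmLC, and their highest level went from 1168.66 to 67.03 FPKM. In both clusters the LmHC pair of libraries showed the direction of the LmLC pair at similar levels.

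**Figure D5:**
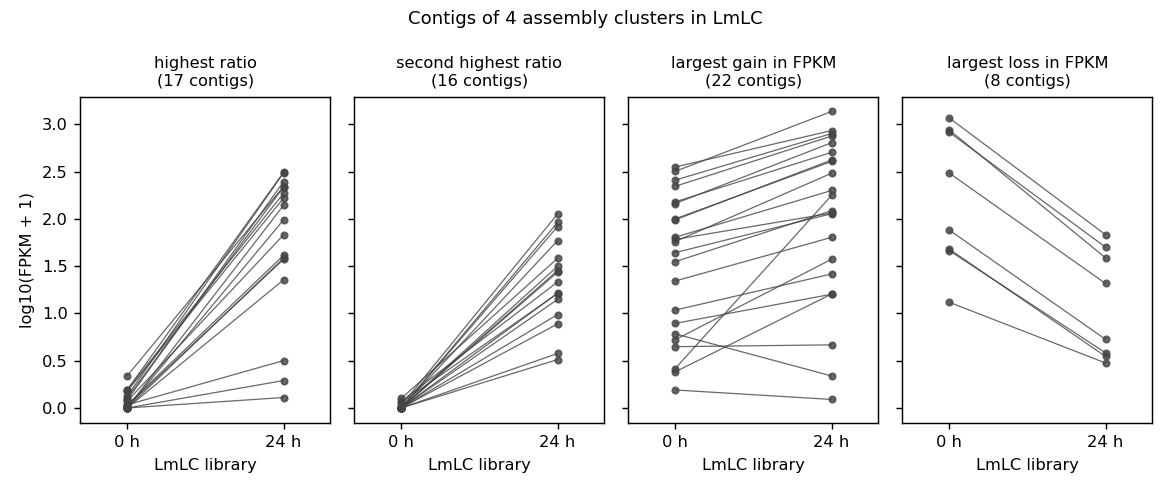
Each line joins the level of 1 contig in LmLC at 0 h and 24 h, as log10 of FPKM + 1, for CL4030 (highest ratio), CL495 (second highest), and the clusters with the largest gain and the largest loss of summed FPKM. In the last panel all 8 contigs are lower at 24 h, and in the first all 17 are higher.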

How the data were processed

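RNA from 4 libraries was sequenced after oligo(dT) capture, per the labels' protocols. The authors deposited 1 table of FPKM values per contig, rounded to 2 decimals, and the submitters' processing notes name Bowtie2 2.2.5 and RSEM 1.2.8. The sources used here name no assembler, contig length or filter. Contigs with a mean of at least 1 FPKM over the 4 libraries were kept, ratios used a pseudocount of 1, and limits were 2-fold and 8-fold. Relative depth was the most frequent ratio of FPKM between libraries, within 0.02 on the log2 scale, among 2949 stand-alone contigs of 0.3 to 1.2 FPKM, searched up to 0.5 on either side of 0. Alternatives were other pseudocounts, filters, scalings, class limits and summed clusters. Named are, by rule, the 2 contigs with the largest gain and loss of FPKM, the 2 highest listed at 0 at the other time, and the 2 clusters with the highest and lowest ratio. Members, lists and limits were chosen with earlier results of these data known. The counts were made in Python 3.11.15 with pandas 2.3.3, numpy 2.4.6 and matplotlib 3.10.9. The counting code was run on simulated libraries with known changes and no spread beyond counting error. That run checks the code and says nothing about the counts reported here.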

Additional observations from a re-analysis of the deposited data

Results flagged for a closer look

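Opposite directions in the lines, each line with 1 pair of libraries, were picked out without a test. At least 2-fold, 28 of 70886 expressed contigs were higher at 24 h in LmLC and lower in LmHC. Another 54 of the 70886 were lower in LmLC and higher in LmHC. Over all expressed contigs, 29.3% were higher and 24.8% lower in LmLC, and 28.2% and 27.6% in LmHC. Among 14193 cluster sums, 6 were higher in LmLC and lower in LmHC, and 4 the other way around. The 4 are named here after their values were seen. CL5256 went from 29.59 to 10.12 FPKM in LmLC and from 5.63 to 53.26 FPKM in LmHC. CL12510 went from 12.08 to 3.59 FPKM in LmLC and from 0 to 1.48 FPKM in LmHC. CL14593 went from 12.57 to 4.09 FPKM in LmLC and from 2.34 to 6.17 FPKM in LmHC. CL11765 went from 7.72 to 2.58 FPKM in LmLC and from 0.82 to 4.61 FPKM in LmHC. Among the 6, CL9105 had the highest LmLC ratio, with 11.93 and 61.33 FPKM in LmLC and 22.98 and 5.34 FPKM in LmHC. These sums were mostly low, and the difference between the lines was not tested.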

How the results depend on the processing

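Of 75 alternative counts for LmLC, 53 lay within 1.5 times the reported count and 22 did not. None of 64 alternative log2 ratios of named contigs and clusters changed sign. That outcome was largely fixed in advance and says little about robustness. No pseudocount can change the sign of a log2 ratio, and the named members were picked for large changes. For the 22 counts that moved, the cause was not tested. A larger pseudocount shrinks the size of log2 ratios by construction, and another filter leaves a smaller or larger number of contigs. With a pseudocount of 0.1, 11261 contigs were at least 8-fold higher and 2252 lower, and 1003 clusters held contigs of both directions. With a pseudocount of 5, 8438 contigs were at least 2-fold higher and 5456 lower, 761 at least 8-fold higher and 31 lower, and 2201 cluster sums at least 2-fold higher and 2472 lower. Clusters then numbered 1827 with contigs higher alone, 2094 with contigs lower alone and 103 with both. With the filter at a mean of 5 FPKM, 7228 contigs were higher and 8405 lower by 2-fold, 6520 moved to a higher class and 6986 to a lower one, and clusters numbered 1316, 1957 and 115 in the same order. With no filter, 34229 of 111761 contigs moved to a higher class and 24861 to a lower one. With the median of ratios, 2913 cluster sums were lower. The reallocated 45.8% became 46.4% over every contig of the table, 44.2% with clusters summed and 46.0% without the 10 contigs of highest mean. No paired analysis was possible because each group had 1 library, and for that reason no library could be left out.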
